A study of Homo sapiens with 8 samples.

Results

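The neomycin control cells of C8161 were compared with those of A2058, both established human melanoma cell lines, to describe how the state of the lines differed without introduced ATF3. A gene entered the comparison if it reached 1 RPKM (reads per kilobase of transcript, scaled to library size) in at least 1 of the 2 control columns. Of the 18478 genes in the table, 12372 did so, which is 67.0%. The rule used only this level, not the direction or size of a difference: the lowest maximum among the genes compared was 1 RPKM and the highest among those left out was 0.99 RPKM, with 126 compared genes under 1.1 RPKM and 165 other genes at 0.9 RPKM or more.

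All 4 groups of the series were human melanoma cells grown in DMEM with 10% fetal bovine serum. The groups compared here were the neomycin controls of A2058 and of C8161; what their vector carried beyond the neomycin marker is not stated. The other groups were A2058 and C8161 cells overexpressing ATF3, activating transcription factor 3, after retroviral transduction. The series holds 8 libraries of total RNA, 1 for each A2058 group and 3 for each C8161 group, and each group is 1 column of the table. For C8161 that column is a combined value of the group's 3 libraries, and whether it is a mean or comes from pooled reads is not stated. Each line stands for 1 tumour, so what differed between tumours, between cultures and between transductions cannot be told apart.

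Melanocytes descend from the neural crest. SOX10 and PAX3 switch on MITF, the transcription factor that drives the pigment genes and much of the differentiated melanocyte program. Melanoma cells are known to occupy states that range from melanocytic, with high MITF and SOX10, through neural crest-like, to dedifferentiated and invasive, with low MITF and high AXL, EGFR and AP-1 activity. C8161 is known as an aggressive line used in work on vasculogenic mimicry, in which tumour cells form vessel-like networks and express endothelial genes.

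The difference of a gene is given throughout as log2(RPKM + 1) in the C8161 control minus that in the A2058 control, a scale that understates differences of low genes. With 1 value per group there was no replicate spread, so no test was run, and each difference describes these columns. The ATF3-transduced columns came from other libraries of the same lines and were used as a second reading of the difference between lines. Where a pair of values is given for a line, the control comes first and the ATF3-transduced column second. The SD of the difference between the lines was 1.32 over the genes compared. By comparison, the SD between the 2 columns of a line was 0.126 in A2058 and 0.131 in C8161, and the SD between the control difference and the difference in the ATF3-transduced columns was 0.184. These columns differ in ATF3 as well as in library and are not replicates.

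Of the 12372 genes, 1158 were higher in C8161 by 1 or more, which is 9.36%, and 2555 were higher in A2058 by as much, which is 20.7%. These are the shares to set beside the counts of every list below. Among the genes compared, 1504 reached 1 RPKM in A2058 alone and 631 in C8161 alone. In every list, such a gene can only be higher in the line through which it entered. At a difference of 2 or more, 410 genes (3.31%) were higher in C8161 and 886 (7.16%) in A2058. In the ATF3-transduced columns 1079 of the 1158 and 2365 of the 2555 again differed by 1 or more in the same direction. A2058 was the higher line for 68.8% of the 3713 genes past 1. That share depends on scaling: it was 64.7% after the median over genes at 5 RPKM or more in both lines, −0.07, was subtracted. After quantile normalization, which moved the median of all compared genes from −0.19 to 0.05, it was 53.2%, with 1637 genes higher in C8161 and 1859 in A2058. Differences within 0.5 of 0 were found for 5452 genes, 44.1%. As a rule of level, 44 genes (0.356%) stood at 10 RPKM or more in C8161 and at most 0.1 RPKM in A2058, and 140 (1.13%) the other way round. Of these, 16 and 50 were listed at 0 in the other line.

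**Figure D1:**
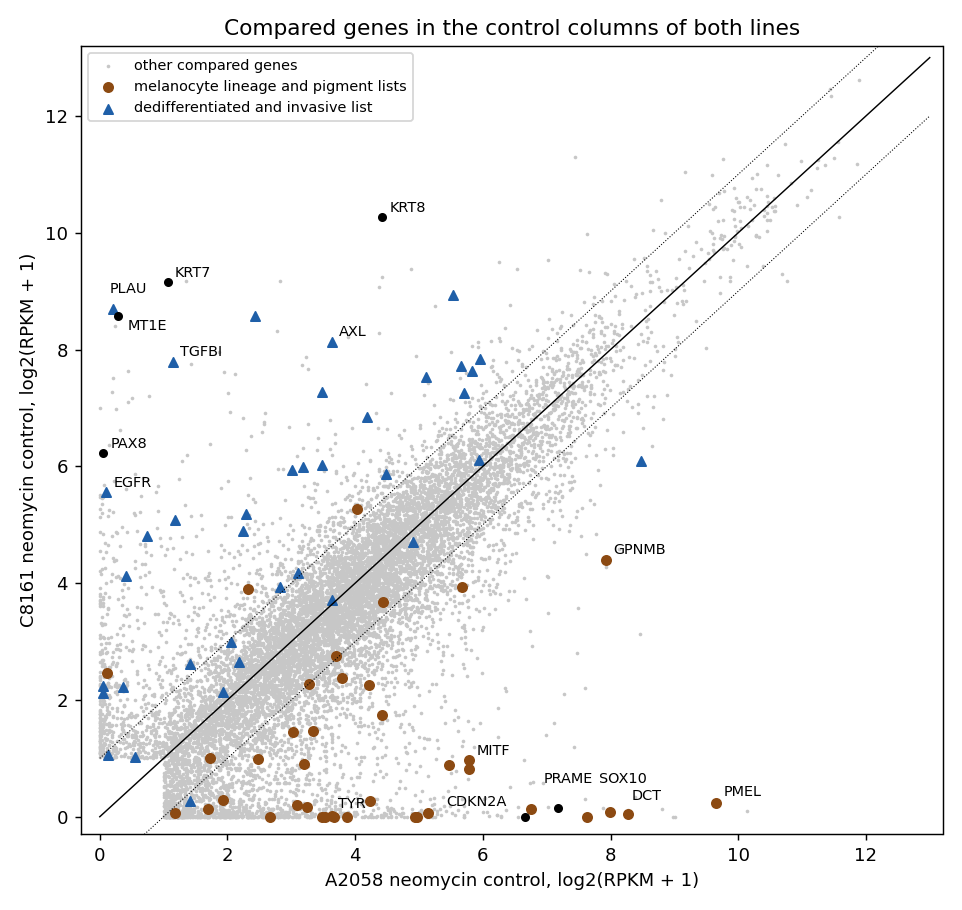
Level of each compared gene in the A2058 neomycin control (x axis) and the C8161 neomycin control (y axis), both as log2(RPKM + 1), 1 point per gene; the solid line marks equal levels and the dotted lines a difference of 1. Lineage and pigment genes (brown) lie mostly along the lower edge, with SOX10, DCT and PMEL far to the right, and most dedifferentiated and invasive genes (blue) lie above the upper dotted line.

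The columns summed to between 470633 and 481302 RPKM, and 10866 to 11753 genes per column reached 1 RPKM, fewer in both C8161 columns than in either A2058 column. The table holds no read totals, the spacing of its low values did not settle them, and the depth of the columns is therefore unknown. ATF3 (chromosome 1, 212565407 to 212620777, GRCh38) was at 1.22 against 4.76 RPKM in the A2058 and C8161 controls, 3.90-fold higher in C8161, and at 4.71 and 62.6 RPKM in the ATF3-transduced columns.

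The melanocytic markers separated the lines. Of 17 compared lineage regulators and receptors, 14 were 1 or more higher in A2058 and 2 were 1 or more higher in C8161, against 20.7% and 9.36% of all genes, and the median difference was −2.69 beside −0.19 for all genes. Of the 17, 16 reached 1 RPKM in the A2058 control and 6 in the C8161 control. Most thus entered the comparison through A2058 alone and could not be higher in C8161. SOX10 (chromosome 22, 37972312 to 37984555), the neural crest factor that keeps up the melanocyte lineage, was at 254 and 253 RPKM in A2058 against 0.06 and 0.05 RPKM in C8161. MITF (chromosome 3, 69739464 to 69968332), the master regulator of melanocyte differentiation, was at 54.02 and 51.9 RPKM in A2058 against 0.95 and 1.02 RPKM in C8161, 56.9-fold lower in the C8161 control. PAX3, which acts with SOX10 on MITF, was at 10.5 and 9.71 RPKM in A2058 against 0 and 0 RPKM in C8161. The lowest of these values in A2058 was 9.71 RPKM and the highest in C8161 was 1.02 RPKM. Such separation is not particular to these 3 of the 17 members. Of all 2555 genes 1 or more higher in A2058, 2365 were so in both pairs of columns. In a bulk culture, fewer cells of a type and less RNA per cell cannot be told apart.

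Further regulators followed the same pattern. TFAP2A, a neural crest factor that binds melanocyte enhancers beside MITF, was at 43.1 and 43 RPKM in A2058 against 0.85 and 0.76 RPKM in C8161. EDNRB, the endothelin receptor of melanoblasts, was at 29.7 and 32.02 RPKM in A2058 against 0 and 0 RPKM in C8161. ERBB3, the neuregulin receptor of the neural crest lineage, was at 53.97 and 52.7 RPKM in A2058 against 0.77 and 0.65 RPKM in C8161. IRF4, which regulates tyrosinase, was at 11.4 against 0.01 RPKM in the controls of A2058 and C8161, SOX6 at 8.53 against 0.12, LEF1 at 20.5 against 2.33, ZEB2 at 17.6 against 3.78 and MC1R, the melanocortin receptor, at 9.14 against 1.77. The exceptions were 2 transcription factors. SOX9, which in melanoma is often found where SOX10 is absent, was at 0.08 and 0.08 RPKM in A2058 against 4.48 and 5.61 RPKM in C8161. TFE3, a relative of MITF in the same family, was at 15.3 and 16.96 RPKM in A2058 against 37.4 and 36.5 RPKM in C8161.

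Pigment synthesis and melanosome genes were mostly higher in A2058. Of 22 compared members, 19 were 1 or more higher in A2058 and 1, MLPH, was 1 or more higher in C8161, with a median of −3.18 (−3.13 in the ATF3-transduced columns). All 22 reached 1 RPKM in the A2058 control and 8 did in the C8161 control. Most thus entered the comparison through A2058 alone and could not be higher in C8161, so the count follows in part from the entry rule. PMEL, the fibril protein of the melanosome, was at 806 and 853 RPKM in A2058 against 0.18 and 0.13 RPKM in C8161. DCT, dopachrome tautomerase, was at 308 and 292 RPKM in A2058 against 0.03 and 0.01 RPKM in C8161. TYR, tyrosinase, the rate-limiting enzyme of melanin synthesis, was at 11.7 and 13.1 RPKM in A2058 against 0 and 0 RPKM in C8161. A2058 held all 3 in both columns and C8161 none above 0.2 RPKM.

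TYRP1, which stabilizes tyrosinase, was at 7.47 against 0.15 RPKM in the controls, and the melanosomal transporters SLC24A5, SLC45A2 and OCA2 at 30.3 against 0, 10.1 against 0 and 5.36 against 0. MLANA, the antigen MART-1, was at 17.8 against 0.21 RPKM, QPCT at 198 against 0, CAPN3 at 107 against 0.1 and CA14 at 34.5 against 0.04. GPNMB, a lysosomal and melanosomal glycoprotein, was the pigment gene best retained in C8161 among those above 100 RPKM in A2058, at 242 and 246 RPKM in A2058 against 20.1 and 23.9 RPKM in C8161. Genes of melanosome transport differed less. MYO5A, the motor that carries melanosomes, was at 12.9 against 4.16 RPKM, and RAB27A, which tethers it, at 12.1 against 5.72. MLPH, the linker between RAB27A and the motor, was at 3.98 and 4.14 RPKM in A2058 against 14.01 and 11.6 RPKM in C8161.

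The 3 enzymes of melanin synthesis carry the letters CATGTG, the core of the M-box bound by MITF, just upstream of a RefSeq start. These stretches are shown because TYR, TYRP1 and DCT are classical MITF targets and were near 0 in C8161. Only 1 copy per gene is shown. Another lies upstream of the same start, at −12 in TYR and, on the other strand, at −11 in TYRP1 and −215 in DCT. Capitals mark the core, and sequences are RefSeq GRCh38.p14, 5′ to 3′ on the gene's strand.
TYR, chr11:89177746-89177801, plus strand, core at position −104 from the start: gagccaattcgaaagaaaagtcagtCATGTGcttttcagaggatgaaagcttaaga
TYRP1, chr9:12693216-12693271, plus strand, core at position −144: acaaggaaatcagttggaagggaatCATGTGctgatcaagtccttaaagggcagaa
DCT, chr13:94479786-94479841, minus strand, core at position −134: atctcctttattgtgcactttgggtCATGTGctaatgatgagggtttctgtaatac
In windows from 250 bases before to 50 after each start, CATGTG occurred on either strand in 11 of 31 promoters of the 19 pigment genes with an entry, 35.5%. The share was 7.46% over the promoters of all compared genes, 9.96% for genes 2 or more higher in A2058 and 10.9% for genes 2 or more higher in C8161. CATGTG is 1 form of the wider motif CANNTG, found in 61% of the promoters of compared genes. The pigment promoters had a median GC content of 56.3% against 64.7% for all compared genes, and its part in these shares was not tested.

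Other known MITF targets were lower in C8161 less uniformly, with 11 of 16 past 1 toward A2058, 0 toward C8161 and a median of −2.0. All 16 reached 1 RPKM in the A2058 control and 11 did in the C8161 control. ACP5 was at 36.8 against 0.25 RPKM in the A2058 and C8161 controls, TBC1D16 at 129 against 10.3, the acid ceramidase ASAH1 at 52.5 against 6.36 and PPARGC1A, a driver of mitochondrial biogenesis, at 5.89 against 0.19. CDK2, a cell cycle kinase whose gene lies beside that of PMEL, was at 168 and 169.8 RPKM in A2058 against 48.4 and 50.4 RPKM in C8161. BCL2A1, a survival gene of the melanocytic state, was at 16.9 against 14.2 RPKM and BCL2 at 2.71 against 2.11, both within 0.3 of equal on the log2 scale.

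Genes of the neural crest-like state were also mostly higher in A2058. Of 18 compared members 12 were 1 or more higher in A2058 and 3 in C8161, with a median of −2.51. All 18 reached 1 RPKM in the A2058 control and 6 did in the C8161 control. Most thus entered the comparison through A2058 alone and could not be higher in C8161. Another 5 of the 23 listed genes stayed under 1 RPKM in both controls, and with no minimum the median was −1.74. NES, the intermediate filament nestin, was at 106 and 99.7 RPKM in A2058 against 0.5 and 0.52 RPKM in C8161. S100B, a calcium-binding protein used as a melanoma marker, was at 51.3 and 55.3 RPKM in A2058 against 0.02 and 0.04 RPKM in C8161. RXRG, the retinoid receptor of this state, was at 22.7 and 23.01 RPKM in A2058 against 0 and 0.01 RPKM in C8161. The 3 genes were thus at 20 RPKM or more in A2058 and under 1 RPKM in C8161. L1CAM was at 31.3 against 0.83 RPKM in the controls, FOXD3 at 7.09 against 0 and SOX2 at 6.42 against 0.03. NGFR, the nerve growth factor receptor that defines the state in tumours, was low in both, at 2.93 against 0.06 RPKM. The members higher in C8161 were ANXA1, an annexin that binds phospholipids, at 19.8 against 540.1 RPKM, MSX1 at 2.24 against 13.03 and ETS1 at 36.7 against 106. SNAI2, the crest factor slug, was at 22.6 against 20.97 RPKM.

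The list of the dedifferentiated and invasive state ran the other way. Of 38 compared members 28 were 1 or more higher in C8161, 20 of them by 2 or more, and 2 were 1 or more higher in A2058. Of the 38, 37 reached 1 RPKM in the C8161 control and 29 in the A2058 control. The median was 2.06 in the controls and 2.07 in the ATF3-transduced columns. AXL (chromosome 19, 41219223 to 41261766), the receptor tyrosine kinase used to define this state, was at 11.4 and 12.6 RPKM in A2058 against 279.7 and 294 RPKM in C8161, 24.5-fold higher in the C8161 control. EGFR (chromosome 7, 55019017 to 55211628) was at 0.07 and 0.07 RPKM in A2058 against 46.2 and 47.1 RPKM in C8161. FOSL1, the AP-1 subunit FRA1, was at 45.4 and 48.6 RPKM in A2058 against 489 and 560.5 RPKM in C8161, 10.8-fold higher.

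PLAU, the protease urokinase, was at 0.16 and 0.47 RPKM in A2058 against 414 and 434 RPKM in C8161, and had the highest difference of all genes at 10 RPKM or more in a control column, 8.48. Its receptor PLAUR was at 33.4 and 41.6 RPKM in A2058 against 183 and 168 RPKM in C8161. The protease and its receptor were thus higher in both C8161 columns. SERPINE2, the inhibitor protease nexin 1, was the member that differed most in the other direction, at 355 and 347 RPKM in A2058 against 67.4 and 58.2 RPKM in C8161.

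Further members higher in C8161 were TGFBI, a matrix protein, at 1.21 and 1.75 RPKM in A2058 against 220.3 and 155 RPKM in C8161, and CAV1, the coat protein of caveolae, at 10.1 against 155 RPKM in the controls. NT5E, the ectoenzyme CD73, was at 17.2 against 114 RPKM, DKK1, a secreted WNT antagonist, at 10.2 against 64.4, and LOX, which cross-links collagen, at 0.33 against 16.3. WNT5A, the non-canonical WNT ligand often linked to invasive melanoma, was at 0.04 against 3.73 RPKM and SMAD3 at 3.71 against 28.9. THBS1, NRG1 and SH2B3 differed little, at 11.4 against 12.1, 2.83 against 3.38 and 28.9 against 25.1 RPKM. The members PDGFRB, CDH13, ABCC3 and TMEM47 stayed under 1 RPKM in both controls and entered no count. PDGFRB, for example, was at 0.31 and 0.25 RPKM in A2058 and 0.06 and 0.05 RPKM in C8161. In promoters, the AP-1 letters TGANTCA, which read the same on both strands, occurred in 10.3% for genes 2 or more higher in C8161, 5.68% for genes 2 or more higher in A2058 and 5.23% of all compared genes. Median GC content was 61.7%, 64.3% and 64.7% in these sets, and its part was not tested.

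**Figure D2:**
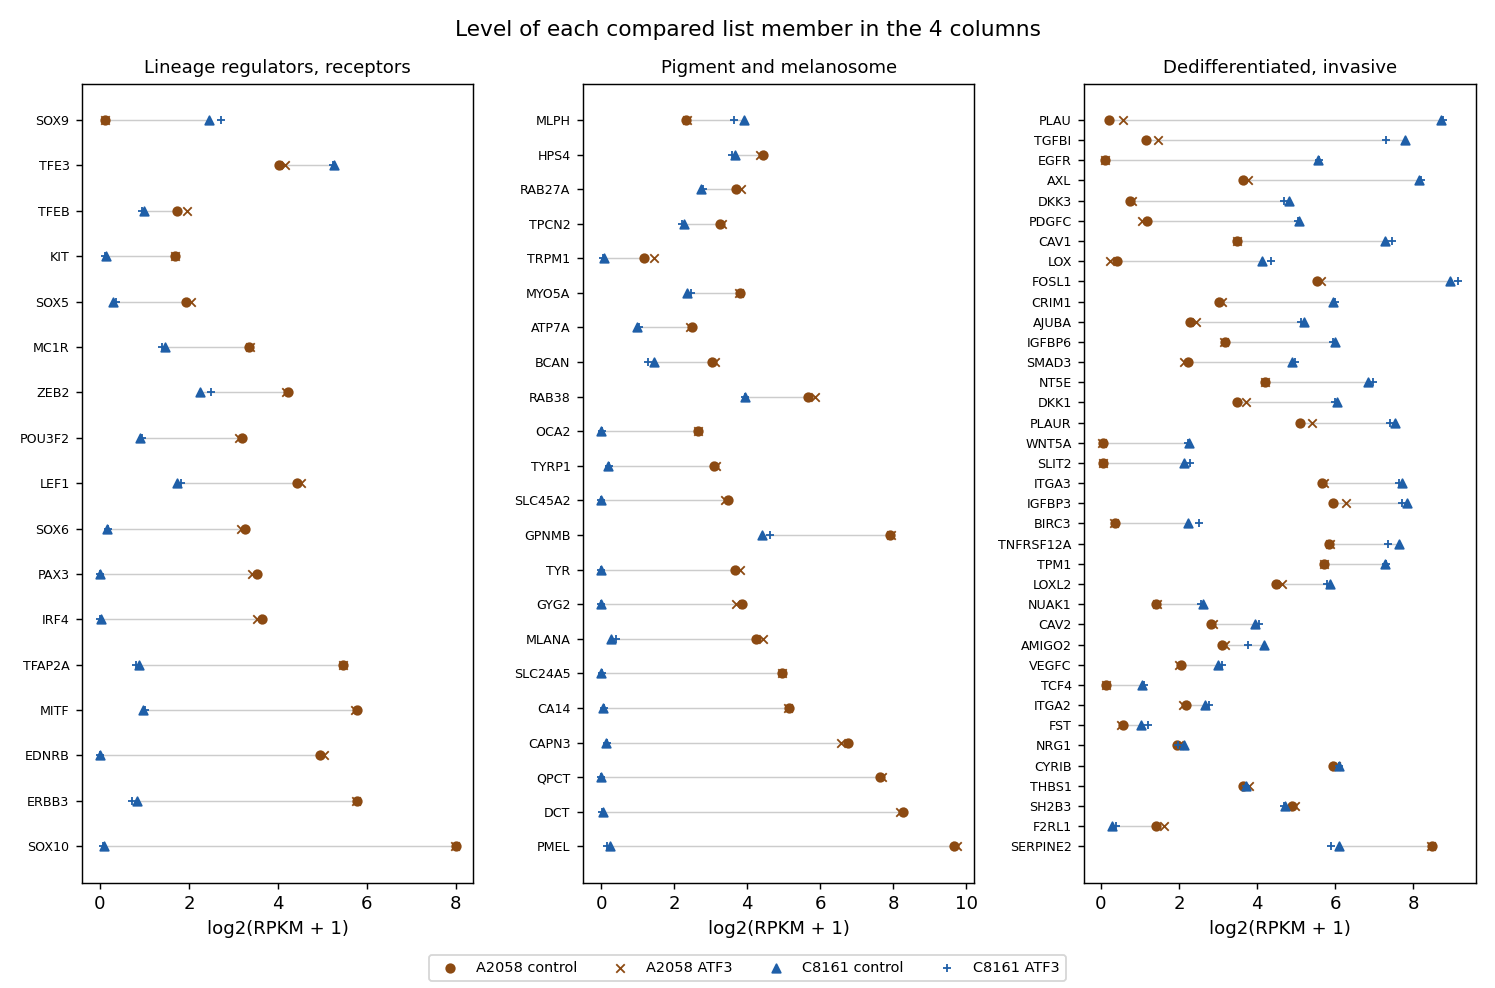
Level of the compared members of 3 lists, 1 dedifferentiated gene left out, as log2(RPKM + 1) (x axis), 1 row per gene: circles and crosses are the A2058 control and ATF3-transduced columns, triangles and plus signs those of C8161, and a grey line joins the controls. The 2 columns of a line lie close together for nearly all genes, A2058 is 1 or more higher for 14 of 17 lineage genes, and C8161 for 28 of the 38 dedifferentiated genes compared.

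Genes linked to vasculogenic mimicry and to the endothelium were divided. Of 23 compared members 10 were 1 or more higher in C8161 and 6 in A2058; the median was 0.76, and −0.05 when genes under 1 RPKM in both controls were added, so the list had no stable direction. CDH5 (chromosome 16, 66366691 to 66404784), the endothelial junction protein VE-cadherin, was at 8.86 and 18.1 RPKM in C8161 against 0.04 and 0.05 RPKM in A2058. TIE1, an endothelial receptor tyrosine kinase, was at 67.2 and 62.8 RPKM in C8161 against 1.45 and 1.45 RPKM in A2058. ROBO4, a guidance receptor of the endothelium, was at 20.5 and 18.1 RPKM in C8161 against 0.03 and 0 RPKM in A2058. EPHA2, a receptor that acts with VE-cadherin in vessel-like networks, was at 100.2 and 91.3 RPKM in C8161 against 14.4 and 13.9 RPKM in A2058.

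SOX17 was at 0 against 4.05 RPKM in the A2058 and C8161 controls and the neuropilin NRP1 at 8 against 39.7. Among the 20 genes with the highest differences were also ESM1 (endocan) at 0.14 against 153 RPKM and ECSCR, an endothelial surface protein, at 0.19 against 126. In A2058 the higher members were MMP1, interstitial collagenase, at 171 against 1.29 RPKM, SERPINF1 at 26.6 against 0.4, EGFL7 at 54.4 against 9.75 and SOX18 at 4.6 against 0.18. MMP2 and MMP14, which cleave laminin, were at 24.7 against 23.7 and 182 against 168 RPKM. The defining endothelial genes PECAM1, VWF, KDR and TEK stayed under 1 RPKM in all 4 columns; KDR, the VEGF receptor, was at 0.34 and 0.29 RPKM in A2058 and 0.25 and 0.34 RPKM in C8161. NODAL and NOTCH4, named in work on this phenotype, also stayed under 1 RPKM in both controls.

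Epithelial keratins stood out in C8161. KRT7 (chromosome 12, 52233243 to 52255853) was at 569 and 489 RPKM in C8161 against 1.09 and 0.82 RPKM in A2058, 522-fold higher. KRT8 was at 1233 and 1088 RPKM in C8161 against 20.5 and 22.6 RPKM in A2058 and its partner KRT18 at 723 and 656 RPKM in C8161 against 75.4 and 81.5 RPKM in A2058. The spans of KRT8 and KRT18 overlap in RefSeq. SFN, the epithelial 14-3-3 sigma protein, was at 146 and 152 RPKM in C8161 against 0.71 and 1.48 RPKM in A2058. The 3 keratins and SFN were higher in both C8161 columns. Of 7 compared keratinocyte and epithelial markers 4 were 1 or more higher in C8161 and 0 in A2058, with summed levels of 2722 and 172 RPKM. The other defining markers of the list did not follow. CDH1 (E-cadherin) was at 0.33 and 0.32 RPKM in A2058 and 0.15 and 0.16 RPKM in C8161, KRT19 at 0.26 and 0.49 RPKM in A2058 and 0.26 and 0.27 RPKM in C8161, and EPCAM, KRT5, KRT14 and TP63 stayed under 1 RPKM in both controls; these 6 were named for their role as markers, outside the rule for named genes. PAX8, a transcription factor of thyroid, kidney and Müllerian tissue, was at 73.97 and 65.2 RPKM in C8161 against 0.04 and 0.07 RPKM in A2058.

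Melanocytic markers thus do not bear out the melanoma label of C8161: SOX10, PMEL, DCT, TYR, MLANA and S100B were at or near 0 in both columns. KRT7, KRT8, KRT18 and PAX8 were high, while CDH1, EPCAM and KRT19 were under 1 RPKM. The dedifferentiated melanoma state described above also has low MITF, so these markers cannot decide what the line is. The label is the submitters' and is kept here as a name only. In A2058 the melanocytic markers were present. Markers of other cells gave no single pattern. Summed fibroblast markers came to 106 RPKM in the A2058 control and 70.3 in the C8161 control, with 5 of 9 compared markers 1 or more higher in A2058 and 2 in C8161, the latter being PDPN at 0 against 43.2 RPKM and FAP at 0.62 against 2.31. Leukocyte markers came to 52.4 and 61.9 RPKM, of which CD68, a lysosomal protein, made up 36.1 against 29.03. Of 12 neuronal and Schwann markers 10 were 1 or more higher in A2058, and UCHL1, a neuronal ubiquitin hydrolase, was at 0.15 against 182 RPKM.

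**Figure D3:**
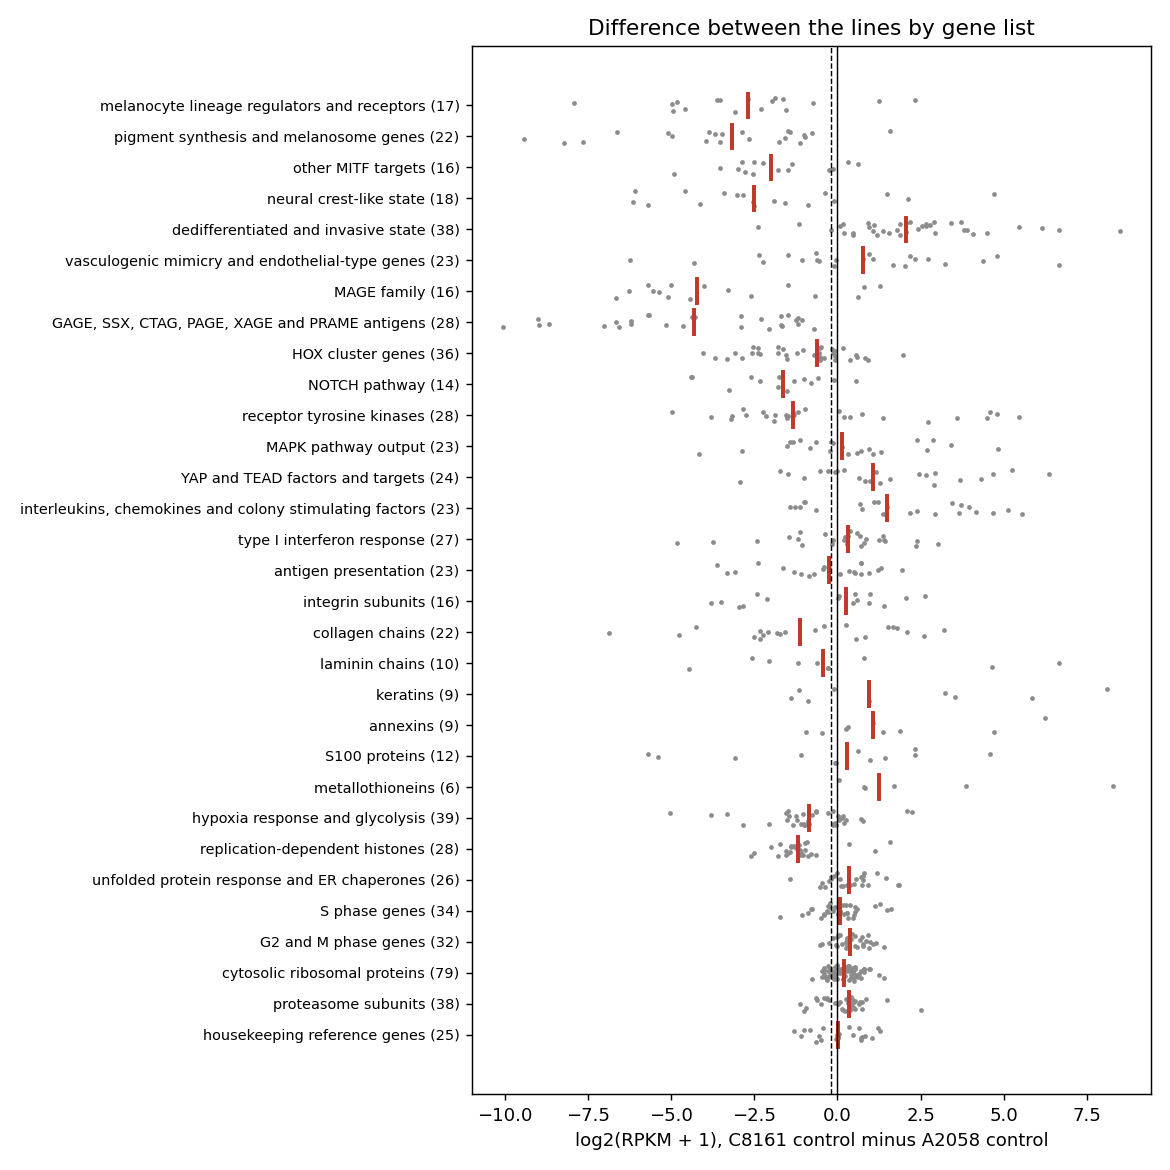
Difference of the members of selected gene lists, C8161 control minus A2058 control in log2(RPKM + 1) (x axis), 1 grey point per compared gene and a red mark at the list median; the dashed line is the median of all compared genes. Pigment genes and germline antigens lie furthest left, and the dedifferentiated list and the interleukin and chemokine list lie to the right.

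Receptor tyrosine kinases differed in both directions, with 16 of 28 compared members 1 or more higher in A2058, 7 in C8161 and a summed level of 387 RPKM in the A2058 control and 689 in the C8161 control. Beside ERBB3, A2058 had more EPHA3 at 13.8 against 0.06 RPKM, the collagen receptor DDR1 at 58.9 against 5.55 and MERTK at 11.99 against 0.45; MERTK was chosen after its value was seen. C8161 had more AXL, EGFR, TIE1 and EPHA2, as given above. EPHB1 was at 24.7 and 22.7 RPKM in C8161 against 0.06 and 0.06 RPKM in A2058 and EPHB2 at 0.04 against 11.6 RPKM in the A2058 and C8161 controls. Of the TAM family, whose members share ligands, AXL was thus higher in C8161 and MERTK in A2058. PTK7 at 14.2 against 16.4 RPKM and MET, the hepatocyte growth factor receptor, at 17.1 against 29.2 differed by less than 1.

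Their ligands differed as well, with 12 of 28 1 or more higher in C8161 and 8 in A2058. GAS6, the ligand of AXL, was at 35.1 and 28.2 RPKM in C8161 against 2 and 2.57 RPKM in A2058. FGF5 was at 0.29 against 12.6 RPKM in the A2058 and C8161 controls, FGF1 at 0.09 against 7.39, PDGFC at 1.26 against 32.8 and PDGFA at 0.2 against 7.71. The EGFR ligand HBEGF was at 4.52 against 17.7 RPKM and TGFA at 7.81 against 1.74; both were chosen after their values were seen. A2058 had more MDK (midkine) at 161 against 28.6 RPKM, PGF at 26.7 against 1.16 and EFNA1 at 12.4 against 0.39.

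Output genes of the MAPK pathway, which most melanomas have switched on, were divided, with a median of 0.13. Of 23 compared, 7 (30.4%) were 1 or more higher in C8161 and 6 (26.1%) in A2058, against 9.36% and 20.7% of all genes. The feedback phosphatase DUSP4 was at 80.7 and 78.99 RPKM in A2058 against 3.59 and 4.09 RPKM in C8161, and its relative DUSP6 at 26.6 against 10.04 RPKM in the controls (chosen after its value was seen). SPRY1, a feedback inhibitor, was at 9.75 against 0.47 RPKM. EMP1, a membrane protein, was at 604 and 698 RPKM in C8161 against 20.5 and 21.8 RPKM in A2058, and CCND1, cyclin D1, at 151 and 152 RPKM in C8161 against 22.7 and 23.6 RPKM in A2058. DUSP4, DUSP6 and SPRY1 were thus higher in A2058, while FOSL1, EMP1, CCND1 and LIF, at 3.5 against 22.5 RPKM, were higher in C8161. SPRED2 and PHLDA1 differed little, at 16.2 against 17.8 and 63.6 against 55.9 RPKM.

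Within the AP-1 and ATF family 16 of 26 members differed by less than 1, as did 70% of all compared genes, so the family's share was near that of all genes. JUN was at 121 and 109 RPKM in C8161 against 3.1 and 3.34 RPKM in A2058, 38.9-fold higher in the C8161 control, and FOSL2 at 9.81 against 29.1 RPKM. FOS, JUNB, JUND and CREM were higher in A2058, at 7.83 against 1.62, 49.97 against 18.03, 29.5 against 10.3 and 88.7 against 13.5 RPKM. The family's subunits thus differed in opposite directions, JUN, FOSL1 and FOSL2 toward C8161 and FOS, JUNB and JUND toward A2058. ATF2 and ATF7, chosen after their values were seen, were at 8.58 against 9.19 and 9.58 against 9.21 RPKM, and ATF4 at 179 against 202.

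In the list for YAP, the effector of the Hippo pathway that acts through TEAD factors, more genes were higher in C8161 than in A2058. Of 24 compared factors and targets 12 were 1 or more higher in C8161 and 4 in A2058, with a median of 1.07. CCN1 (CYR61) was at 579 and 613 RPKM in C8161 against 6.06 and 6.26 RPKM in A2058, 95.5-fold higher in the control. CCN2 (CTGF) was at 153 and 159 RPKM in C8161 against 3.03 and 3.44 RPKM in A2058. ANKRD1 was at 12.3 and 12.5 RPKM in C8161 against 0.03 and 0.28 RPKM in A2058. These are the targets most used as readouts of the pathway, and each was higher in both C8161 columns. AMOTL2 was at 5.01 against 119.9 RPKM in the A2058 and C8161 controls and F3, tissue factor, at 2.3 against 82.8. The factors themselves differed less: TEAD1 was at 27.4 against 22.5 RPKM, TEAD2 at 14.1 against 14.1 and YAP1 at 21.1 and 20.7 RPKM in A2058 against 33.3 and 35.9 RPKM in C8161. WWTR1, the YAP paralog TAZ, chosen after its value was seen, was at 48.2 and 45.7 RPKM in A2058 against 13.7 and 13.3 RPKM in C8161, and AMOT, which holds YAP in the cytoplasm, at 6.72 against 0.01 RPKM.

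CCN2 and ANKRD1 carry GGAATG, the core letters bound by TEAD factors, close to a RefSeq start. The stretches are given since both are textbook YAP targets that were higher in C8161. A further copy upstream of the same start, at −169 in CCN2 and −220 in ANKRD1, is not shown. Capitals mark the core, on the gene's strand, GRCh38.p14.
CCN2, chr6:131951437-131951501, minus strand, cores at positions −104 and −95: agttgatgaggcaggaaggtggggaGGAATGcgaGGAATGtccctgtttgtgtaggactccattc
ANKRD1, chr10:90921185-90921240, minus strand, core at position −128: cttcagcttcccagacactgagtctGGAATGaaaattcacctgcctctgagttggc
GGAATG on either strand occurred in 7 of 26 promoters of the list, 26.9%, in 16.3% for genes 2 or more higher in C8161, 12.1% for genes 2 or more higher in A2058, 11.3% over all compared genes and 14% over all promoters in the RefSeq table. The letters ACAAAG, bound by SOX factors, occurred in the same number of promoters of the list, 7 of 26, in 16.1% for genes 2 or more higher in C8161 and in 11.7% over all compared genes. The share is thus not particular to GGAATG, and all 5 motifs searched were more frequent for genes 2 or more higher in C8161 than over all compared genes.

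In the WNT list 12 of 28 members were 1 or more higher in A2058 and 6 in C8161. Non-canonical ligands were among the latter: WNT5B was at 49.9 and 43.8 RPKM in C8161 against 0.88 and 1.01 RPKM in A2058, beside WNT5A above, and the canonical ligand WNT7B was at 0.57 against 10.97 RPKM in the A2058 and C8161 controls. WNT10B at 8.36 against 0.47 RPKM, the receptor FZD9 at 5.02 against 0 and the repressor TCF7L1 at 8.31 against 0.95 were higher in A2058. The antagonists DKK1 and DKK3 were higher in C8161, DKK3 at 0.67 against 27.1 RPKM.

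NOTCH genes were lower in C8161 throughout the part of the list that differed, with 10 of 14 past 1 toward A2058 and 0 toward C8161. All 14 reached 1 RPKM in the A2058 control and 9 did in the C8161 control. Those that entered through A2058 alone could not be higher in C8161. HEY1, a direct target, was at 74.1 and 75.1 RPKM in A2058 against 2.64 and 2.37 RPKM in C8161, and HES6 at 50.8 and 49.3 RPKM in A2058 against 1.46 and 1.38 RPKM in C8161. The ligands DLL3 and JAG2 were at 8.88 against 0.04 and 5.86 against 0.13 RPKM in the controls and the receptor NOTCH3 at 4.06 against 0. NOTCH2 was at 21.8 against 32.5 RPKM.

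In the TGF-beta and BMP list 10 of 28 members (35.7%) were 1 or more higher in C8161 and 8 (28.6%) in A2058, against 9.36% and 20.7% of all genes. INHBA, the activin A subunit, was at 34.9 and 29.2 RPKM in C8161 against 0.46 and 0.43 RPKM in A2058, and TGFBR2, the type II receptor, at 61.3 and 58.2 RPKM in C8161 against 5.92 and 5.6 RPKM in A2058. TGFBI and SMAD3, given above, were higher in C8161 too. GDF15, a stress-induced family member, was at 178 and 202 RPKM in A2058 against 5.99 and 4.45 RPKM in C8161, and the inhibitory SMAD6 was at 6.55 against 0.24 RPKM in the controls and ID2, a BMP target, at 15.8 against 2.22. TGFB1 was at 62.95 against 54.02 RPKM.

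Matrix and adhesion genes differed in kind between the lines. Of 22 compared collagen chains 11 were 1 or more higher in A2058 and 6 in C8161. COL9A3 was at 128 against 0.12 RPKM in the A2058 and C8161 controls, COL18A1 at 44.5 against 0.69 and the basement membrane chain COL4A2 at 175 against 34.1, whereas COL6A2 was at 4 against 44.7 and COL12A1 at 1.4 against 13.5. THBS2, thrombospondin 2, was at 308 and 284 RPKM in A2058 against 0.08 and 0.06 RPKM in C8161. TGM2, tissue transglutaminase, which cross-links matrix proteins, was at 669 and 580.2 RPKM in C8161 against 28.3 and 30.1 RPKM in A2058. FBLN5 was at 80.9 against 0.08 RPKM and EMILIN1 at 36.8 against 0.16.

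Laminin chains differed in both directions. LAMB3, a chain of the epithelial anchoring laminin, was at 8.37 against 234 RPKM in the A2058 and C8161 controls, and its partner chain LAMA3 at 0.37 against 1.37. LAMA1, LAMA4 and LAMB1 were higher in A2058, at 50.2 against 1.31, 21.8 against 2.82 and 84.9 against 19.7 RPKM. Among integrins, which bind these proteins, ITGA3, a receptor chain for that laminin, was at 209 and 198 RPKM in C8161 against 49.6 and 50.98 RPKM in A2058. ITGB3, which pairs to the vitronectin receptor, was at 41.6 and 40.7 RPKM in A2058 against 2.06 and 2.24 RPKM in C8161, and ITGA4 and ITGA9 were at 6.21 against 0.01 and 6.79 against 0.01 RPKM. ITGB5 and ITGA6 were at 38.6 against 39.7 and 40 against 60.2 RPKM and ITGB1, the common partner chain, at 143 against 281.

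Among proteases and their inhibitors 12 of 33 were 1 or more higher in A2058 and 9 in C8161. PLAT, the tissue plasminogen activator, was at 55.2 against 6.21 RPKM in the A2058 and C8161 controls, MMP17 at 31.3 against 0.21, and MMP8 at 7.67 against 0. ADAMTS1 was at 4.96 against 108 RPKM.

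Junction genes and factors of the epithelial to mesenchymal transition had no common direction, with a median of −0.07. TWIST2 was at 28.5 and 24.1 RPKM in C8161 against 0 and 0 RPKM in A2058 and GJA1 (connexin 43) at 0.02 against 35.8 RPKM in the A2058 and C8161 controls; CLDN4 and CLDN1 (claudins) were at 1.51 against 39.6 and 6.76 against 102. A2058 had more GJB1 (connexin 32), at 28.9 against 0 RPKM, and JUP (plakoglobin), at 17.9 against 0.01. CDH2, N-cadherin, was at 17.04 against 24.5 RPKM and vimentin, VIM, at 1692 against 2941, so both lines had the mesenchymal cadherin and filament. Of surface molecules, ALCAM was at 8.56 against 105 RPKM, and CEACAM1, MCAM and NRCAM were higher in A2058, at 51.4 against 0.13, 187 against 38.2 and 19.6 against 0.11 RPKM.

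Interleukins, chemokines and colony stimulating factors were mostly higher in C8161: 15 of 23 compared members by 1 or more and 4 in A2058, with a median of 1.49 (1.89 in the ATF3-transduced columns). The median was 3.11 with a pseudocount of 0.1 RPKM and 3.70 with a minimum of 5 RPKM. CXCL1, a chemokine for neutrophils, was at 317 and 313 RPKM in C8161 against 5.87 and 7.04 RPKM in A2058. IL1B was at 46.4 and 47.9 RPKM in C8161 against 0.85 and 0.82 RPKM in A2058 and IL1A at 18.2 and 15.3 RPKM in C8161 against 0.06 and 0.02 RPKM in A2058; both encode interleukin 1. CSF3, granulocyte colony stimulating factor, was at 34 and 33.5 RPKM in C8161 against 0 and 0 RPKM in A2058. CXCL8, interleukin 8, was at 2.73 against 48.5 RPKM in the A2058 and C8161 controls, CXCL2 at 0.64 against 24.3, IL32 at 0.75 against 21.2 and IL18 at 1.22 against 23.2. MIF was at 938 against 604 RPKM and made up most of the list's summed level in A2058. Of 20 NF-kB subunits and targets 16 were within 1 of equal, 3 were higher in C8161 and 1 in A2058.

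Of 27 compared interferon response genes 7 (25.9%) were past 1 toward C8161 and 7 (25.9%) toward A2058, against 9.36% and 20.7% of all genes. The share toward A2058 was thus near that of all genes. MX2 was at 28.7 and 28.1 RPKM in A2058 against 0.05 and 0.07 RPKM in C8161 and ISG20 at 46.2 against 2.56 RPKM in the controls, while IFI27 was at 0.33 against 9.82, OAS3 at 0.12 against 4.9 and IFI44 at 0.98 against 9.08. ISG15, a ubiquitin-like modifier, was at 11.51 against 14.6 RPKM. In antigen presentation the class II genes HLA-DQB1, HLA-DPB1, HLA-DPA1 and HLA-DMB were at 11.2 against 0, 8.89 against 0, 7.66 against 0.02 and 4.33 against 0.01 RPKM. Other genes of class II did not reach 1 RPKM in either control, among them HLA-DRA, HLA-DRB1, HLA-DQA1, CD74 and the regulator CIITA; these 5 were chosen after their values were seen. Class I genes did not share a direction, HLA-C at 165 against 52.3 RPKM, HLA-B at 12.7 against 51.7 and the light chain B2M at 191 against 447. Of the checkpoint ligands, CD274 (PD-L1) was at 6.71 and 6.3 RPKM in C8161 against 0.2 and 0.21 RPKM in A2058 and PDCD1LG2 (PD-L2) at 0.05 against 5.04 RPKM. TNFRSF14 at 57.2 against 1.28 RPKM, CD200 at 13.1 against 0.05 and LGALS3 (galectin 3) at 213 against 39.9 were higher in A2058.

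Some cancer-testis antigens, germline genes that many tumours express, were found in A2058 and nearly absent from C8161. Of 28 compared genes of the GAGE, SSX, CTAG, PAGE, XAGE and PRAME group 27 were 1 or more higher in A2058 and 0 in C8161, with summed levels of 3329.8 and 7.68 RPKM. All 28 reached 1 RPKM in A2058 and 1 did in C8161. Most thus entered the comparison through A2058 alone, and the count follows largely from the entry rule. The group was gathered by gene name and also holds CSAG, CT45, CT47, SPANX, CTAGE and a few other genes. Another 41 of its 69 genes stayed under 1 RPKM in both controls, most of them from families outside those named first. PRAME, an antigen of melanoma, was at 143 and 143 RPKM in A2058 against 0.11 and 0.07 RPKM in C8161. GAGE12B was at 1128 and 1221 RPKM in A2058 against 0.07 and 0.04 RPKM in C8161, the widest gap of all genes, −10.04. Among the compared genes of the group, 17 share at least 50% of their 50-base stretches with other genes, so how reads were divided among GAGE copies is uncertain. Of 16 compared MAGE genes 12 were 1 or more higher in A2058. Of the 16, 15 reached 1 RPKM in A2058 and 4 in C8161, and 12 more of the family stayed under 1 RPKM in both controls. MAGEC1 was at 20.7 and 21.2 RPKM in A2058 against 0 and 0 RPKM in C8161 and MAGEA4 at 36.8 against 0.1 RPKM in the controls, whereas the broadly expressed MAGED1 was at 58.1 against 36.2. Genes on chromosome X made up 26 of the 140 seen in A2058 and nearly absent from C8161, 18.6%, and 2 of the 44 seen the other way, 4.55%, against 3.47% of all compared genes. Of the 140 genes 23 share at least 50% of their sequence with other genes in the same sense.

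Among cell cycle inhibitors, a pair of neighbours on chromosome 9 was near 0 in C8161. CDKN2A (chromosome 9, 21967752 to 21995324), which encodes p16 and p14ARF, was at 100.4 and 99.2 RPKM in A2058 against 0 and 0.03 RPKM in C8161. Its neighbour CDKN2B (chromosome 9, 22002903 to 22009313), p15, was at 9.87 and 10.4 RPKM in A2058 against 0 and 0 RPKM in C8161, and MTAP (chromosome 9, 21802636 to 21941115), a methionine salvage enzyme beside them, at 21.9 and 23.2 RPKM in A2058 against 0.08 and 0.09 RPKM in C8161. The next compared gene, TUSC1 (chromosome 9, 25676969 to 25678444), was at 13.1 and 12.6 RPKM in A2058 against 0.05 and 0.01 RPKM in C8161. On the flanks, KLHL9 (chromosome 9, 21329665 to 21335404) was at 11.6 and 11.4 RPKM in A2058 and 12.8 and 12.3 RPKM in C8161, and CAAP1 (chromosome 9, 26840685 to 26892802) at 9.65 and 9.21 RPKM in A2058 and 10.03 and 10.9 RPKM in C8161; these 3 genes were chosen after their values were seen. MTAP, CDKN2A, CDKN2B and TUSC1 were thus near 0 in C8161 between flanking genes of like level in both lines. DNA was not measured. CDKN1C (p57) was at 47.8 against 1.78 RPKM in the A2058 and C8161 controls, cyclin E1, CCNE1, at 20.3 against 3.81 and MYC at 42.5 against 107. E2F1 and CCNE2 were at 20.5 against 20.8 and 10.6 against 10.5 RPKM.

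CDKN1A (p21), which stops the cell cycle, was at 14.8 against 4.22 RPKM in the controls and PHLDA3 at 30.1 against 6.58, while PLK2 was at 309 and 287 RPKM in C8161 against 19.8 and 21.3 RPKM in A2058 and GADD45A at 13.5 against 55.7 RPKM. AEN, TNFRSF10B and BAX were at 25.4 against 26.2, 24.1 against 25.6 and 86.6 against 106 RPKM. In the BCL2 family the anti-apoptotic BCL2L1 was at 76.2 and 90.8 RPKM in C8161 against 16.4 and 16.4 RPKM in A2058 and MCL1 at 40.1 against 100.3 RPKM in the controls, and the pro-apoptotic BCL2L11 (BIM) was at 6.1 against 1.24. The telomerase gene TERT was at 8.2 against 0.17 RPKM, HMGA1, a chromatin protein, at 440.3 against 1517 and EZH2, the histone methyltransferase, at 28.1 against 9.81.

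Hypoxia and glycolysis genes were more often higher in A2058, 15 of 39 by 1 or more against 2 in C8161, with a median of −0.85. CA9, a classic HIF1 target, was at 9.86 and 10.8 RPKM in A2058 against 0.09 and 0.05 RPKM in C8161, PFKFB4 at 33.9 against 1.51 RPKM in the controls and ALDOC at 40.5 against 0.27. HIF1A was at 109 against 37.8 RPKM and EPAS1, its relative HIF2A, at 2.05 against 13.3. The glycolytic enzymes PKM and PFKP differed by less than 1, PKM at 1392 against 1409.9 RPKM and PFKP at 146 against 141. The list of metallothioneins, which bind zinc and copper, also held the transcription factor MTF1. Of the list's 6 compared genes, MTF1 among them, 3 were 1 or more higher in C8161 and 3 differed by less than 1. The other 5 stayed under 1 RPKM in both controls. MT1E was at 381 and 329 RPKM in C8161 against 0.22 and 0.34 RPKM in A2058 and MT2A at 2525 and 2296 RPKM in C8161 against 174 and 187 RPKM in A2058. The aldo-keto reductases AKR1C1 and AKR1C3 were at 0.47 against 57.3 and 0.21 against 28 RPKM, whereas NQO1 and SRXN1, other NRF2 targets, were at 179.7 against 165 and 43.96 against 42.02, so the NRF2 list as a whole had a median of 0.03. Of stress response genes, DDIT4 was at 279.8 against 23.1 RPKM and the amino acid transporter SLC7A5 at 402 against 80.5, and PPP1R15A was at 20.01 against 76.7.

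Of 36 compared HOX genes, which record position along the body axis, 17 were 1 or more higher in A2058 and 1 in C8161. The genes from HOXC13 to HOXC6 (chromosome 12, 53938831 to 54030823) formed a run of 7 with a median of −2.52; HOXC10 was at 19.3 against 0.23 RPKM in the A2058 and C8161 controls. HOXB13 was at 11.8 against 0.01 RPKM and HOXA11 at 9.3 against 0.03. HOXB6 was at 30.1 against 28.8 RPKM. Among SOX factors SOX8 was at 20.1 against 0 RPKM beside SOX10, and SOX7 was at 0.11 against 6.86.

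Differences were not spread evenly over the genome. Chromosome 7 stood apart: of 582 compared protein-coding genes 281 were 1 or more higher in A2058, 48.3%, and 35 were higher in C8161, with a median of −0.97 in both pairs of columns, against −0.18 for all 12172 protein-coding genes with a position. Within it the stretch from 100 to 120 Mb had the lowest median, −1.40, with 101 of 106 genes lower in C8161. Chromosome 17 followed at −0.60. Chromosome 3 had the highest median, 0.21 in the controls and 0.23 in the ATF3-transduced columns, followed by chromosome 5 at 0.09 and 0.18 and chromosome 12 at 0.07 and 0.11. On chromosome 3, 131 of 691 genes were 1 or more higher in C8161, and its stretches from 140 to 160 Mb and from 160 to 180 Mb had medians of 0.97 and 0.98. After quantile normalization the medians of all 23 chromosomes rose, that of chromosome 7 to −0.71 and that of chromosome 3 to 0.46. The difference tended to be lower for genes with GC-rich transcripts, with a rank correlation of −0.27 over 12238 genes. GC and length trends were not removed for the chromosome medians, and the part of GC content in them was not tested.

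Some neighbouring genes differed together. In 36 runs at least 5 adjoining compared genes were all 1 or more higher in A2058, 253 genes in all, and 14 of these runs lay on chromosome 7. The longest, 17 genes at chromosome 7, 149472696 to 151144434, holds KCNH2, NOS3 and CDK5. CDK5, a kinase active in neurons, was at 49.9 and 47.5 RPKM in A2058 against 8.46 and 7.44 RPKM in C8161. The next, 15 genes at chromosome 7, 100428790 to 100867012, holds the transferrin receptor TFR2 and EPHB4, the latter at 33.4 against 8.44 RPKM in the controls. In C8161 there were 7 such runs with 38 genes. One of them, on chromosome 3 from 134157133 to 136196335, holds RYK, AMOTL2 and EPHB1, and another, on chromosome 2 from 112645939 to 113278921, holds IL1A, IL1B and PAX8. Of all 12172 protein-coding genes with a position, 20.3% were 1 or more higher in A2058 and 9.39% in C8161. How many such runs would arise among unlinked genes was not tested. Some runs were gene families. On chromosome X, a run of 10 genes with GAGE copies held 7 that share sequence, and a run of 8 with MAGEA genes held 6. Copy number was not measured.

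**Figure D4:**
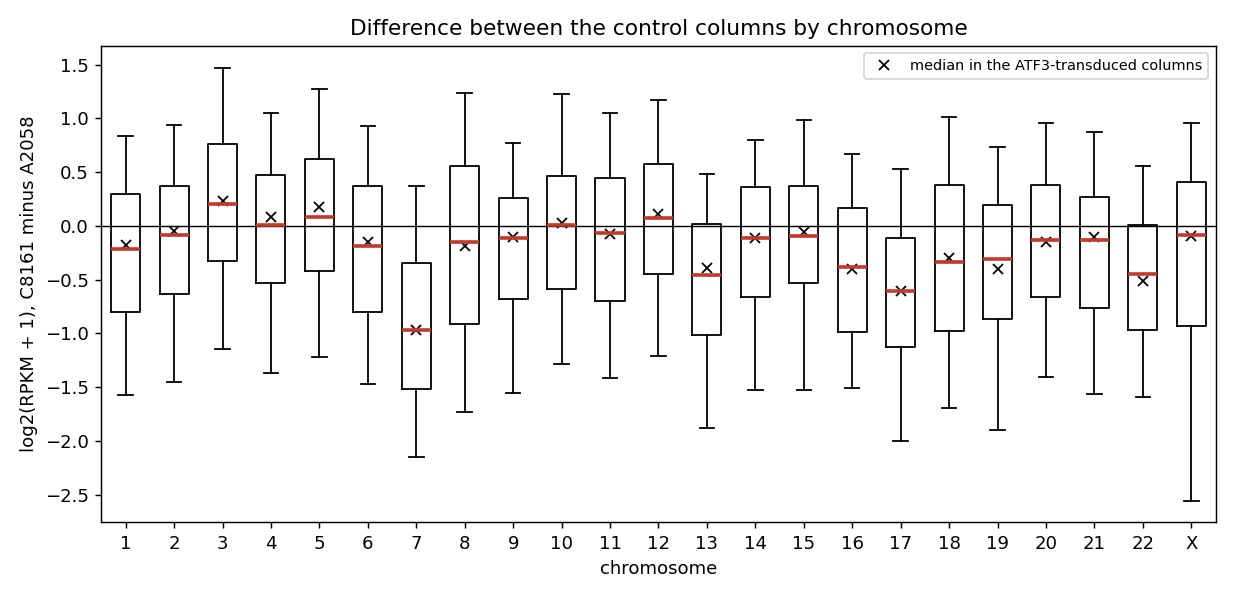
Difference of compared protein-coding genes by chromosome, C8161 control minus A2058 control in log2(RPKM + 1) (y axis); boxes span the quartiles with the median as a line, and whiskers the 10th to the 90th percentile, and crosses are medians in the ATF3-transduced columns. The box of chromosome 7 lies lowest, with a median of −0.97, and that of chromosome 3 highest, with 0.21.

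Differences of less than 1 were found in 70% of all compared genes, which is the share to set beside the next counts. Of 34 S phase genes 28 and of 32 genes of G2 and M phase 29 were within 1 of equal, with medians of 0.08 and 0.39. Cytosolic ribosomal protein genes had 77 of 79 within 1 and a median of 0.20, respiratory chain subunits 68 of 74 and −0.26, and housekeeping genes 20 of 25 and 0.01. Of 38 proteasome genes 35 were within 1, and PSMD2, a subunit encoded on chromosome 3, was at 738 and 722 RPKM in C8161 against 129 and 131 RPKM in A2058. The shares of S phase and housekeeping genes were near that of all genes.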

How the data were processed

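RNA-seq of 2 melanoma lines was analysed from 1 table of RPKM values that the authors deposited, per the file headers, with 4 value columns and 2 decimals. Per the submitters' processing notes, the tools were Bowtie2 and RSEM (versions not given) with hg38 as the build. Not given in the sources used here are the annotation, the filters, the strand setting and whether RPKM counts reads or fragments. Groups came from the labels, and every column was mapped to a group. The columns hold 1 value per group, so no count model, test or SD over replicates was possible.

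Values were used as deposited, as log2(RPKM + 1), over genes with at least 1 RPKM in a control column. A fold of RPKM is given only where the lower value was at least 0.5 RPKM. Symbols, types and coordinates came from RefSeq GRCh38.p14 by Entrez identifier, with 18156 of 18478 matched. GC content, length and shared sequence came from GENCODE 29, for 17847 genes; sharing sequence means that 50% or more of all 50-base stretches in a gene's longest transcript occur in another gene. Python 3.11.15, pandas 2.3.3, numpy 2.4.6 and matplotlib 3.10.9 were used, and the calculation was tested on simulated data.

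The members, the 66 gene lists and the rule for named genes were chosen with earlier results of these data known. The rule takes ATF3, the 20 highest and 20 lowest differences at 10 RPKM or more in a control, and all members of the 6 lists of melanoma states. It also takes up to 8 members of each other list with the largest difference and at least 2 RPKM (all of lists with 12 or fewer), and up to 6 with the smallest at 10 RPKM or more. Genes in runs of 5 or more and the 12 most abundant genes seen in only 1 line complete it. Genes outside it are marked in the text. Alternatives were other columns, pseudocounts, minimum levels, scalings, gene types and corrections for GC content and length. Some genes are not reported here.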

Additional observations from a re-analysis of the deposited data

Results flagged for a closer look

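For 4 of the 3713 genes that differed by 1 or more between the controls, the difference had the opposite sign in the ATF3-transduced columns. The difference between the 2 pairs was not tested. FMC1-LUC7L2 differed by 1.95 toward C8161 in the controls, at 0.20 RPKM in A2058 and 3.65 RPKM in C8161, and by −1.36 in the ATF3-transduced columns, at 4.62 and 1.19 RPKM. SERF1A differed by 1.16, listed at 0 in A2058 and at 1.24 RPKM in C8161, and by −1.43 in the ATF3-transduced columns, at 5.24 and 1.31 RPKM. PEDS1-UBE2V1 differed by −1.45, at 7.81 RPKM in A2058 and 2.22 RPKM in C8161, and by 1.29 in the other pair, at 0.41 and 2.45 RPKM. SMIM11 differed by −1.06, at 2.2 and 0.53 RPKM, and by 0.07 in the other pair, at 0.64 and 0.72 RPKM. In all 4 genes most of the transcript occurs in other genes as well: 96.9% of its 50-base stretches for FMC1-LUC7L2, 97.3% for SERF1A, 98.5% for PEDS1-UBE2V1 and 100% for SMIM11. The part of this shared sequence in the reversals was not tested.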

How the results depend on the processing

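No paired analysis was possible because the columns hold 1 value per group and carry no replicate numbers, and for the same reason no replicate could be left out. Dropping the minimum level cannot change a count of genes past 1 or 2; of the other 32 alternative values for the counts, 30 stayed within 1.5 times. With a pseudocount of 0.1 RPKM, 677 genes were 2 or more higher in C8161 (410 with 1 RPKM) and 1555 in A2058 (886). Lists were compared by their medians, and a shift of over 0.184, the SD between the 2 pairs of columns, is given for the lists of melanoma states. The lineage list (−2.69) moved to −3.55 with a pseudocount of 0.1, −2.36 after quantile normalization, −3.52 with a minimum of 5 RPKM and −2.48 with no minimum. Under these settings in the same order, the pigment list (−3.18) moved to −5.35, −2.97, −3.50 and −2.88, and to −3.40 after removal of GC and length trends; the neural crest-like list (−2.51) moved to −4.87, −2.27, −2.85 and −1.74. Other MITF targets (−2.0) moved to −2.41 with a pseudocount of 0.1, −1.77 with a minimum of 5 RPKM and −1.77 with none. The dedifferentiated list (2.06) moved to 2.64 with a pseudocount of 0.1 and 2.54 with a minimum of 5 RPKM. The vasculogenic list (0.76) moved to 1.01 in the ATF3-transduced columns, 0.95 after quantile normalization, 0.53 after removal of GC and length trends and −0.05 with no minimum, and the smaller list of endothelial markers (1.08) to −0.03 with no minimum; these last 2 changed sign because genes under 1 RPKM in both lines entered. Chromosome 7 (−0.97) moved to −0.71 after quantile normalization. Of the other medians given, that of interleukins and chemokines (1.49) moved to 3.11 with a pseudocount of 0.1, 3.70 with a minimum of 5 RPKM, 1.76 after quantile normalization and 1.15 with no minimum. Quantile normalization moved YAP and TEAD (1.07) to 1.32, NRF2 (0.03) to 0.23, MAPK output (0.13) to 0.32 and junctions (−0.07) to 0.27, the last to 0.46 with a minimum of 5 RPKM. Leaving out median centring and the limit to protein-coding genes, which can hardly change a list, 238 medians over all lists stayed within that SD, 157 moved further and 1, the endothelial markers, is counted as reversed. Of the genes named, 3 that differed by 1 or more reversed in the ATF3-transduced columns: FMC1-LUC7L2 to −1.36, PEDS1-UBE2V1 to 1.29 and SERF1A to −1.43. SMIM11, at 0.07 there, was not counted because it was under 1 RPKM in both ATF3-transduced columns. The depth of the columns is unknown, which limits statements on genes near 0.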

Other observations

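Among families of calcium-binding proteins, the S100 genes were divided by member and the annexins leaned toward C8161. Of 12 compared S100 genes 4 were 1 or more higher in C8161 and 4 in A2058. S100A1 was at 193 and 205 RPKM in A2058 against 3.6 and 3.42 RPKM in C8161, and S100A4 was at 50.6 against 5.16 RPKM in the A2058 and C8161 controls, both lower in C8161 as S100B was. S100A2 was at 212 and 215 RPKM in C8161 against 7.94 and 8.44 RPKM in A2058, and S100A6 at 197 against 1003 RPKM and S100A16 at 85.1 against 433 in the controls. S100A10 and S100A11 differed by less than 1, at 231 against 355 and 376 against 357 RPKM. Of 9 compared annexins 5 were 1 or more higher in C8161 and 0 in A2058. ANXA3 was at 81.3 and 74.8 RPKM in C8161 against 0.1 and 0.07 RPKM in A2058, and ANXA2 at 572 against 2106 RPKM in the controls, while ANXA5, used to detect dying cells, was at 434 against 539.6.

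Replication-dependent histone genes, whose transcripts mostly lack a poly(A) tail, were lower in C8161 for 19 of 28 compared members by 1 or more, with a median of −1.19 that moved to −1.88 with a pseudocount of 0.1 RPKM, −0.70 after quantile normalization and −0.49 with no minimum, while S phase genes had a median of 0.08. H2AC6 was at 23.4 against 3.29 RPKM in the controls and H2BC12 at 80.6 against 29.3. Several of these genes share sequence, 9 of 28 by at least 50%, so reads may have been divided among them.

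Among genes seen in 1 line and nearly absent in the other, the 12 most abundant in C8161 included OCIAD2 at 127 and 128 RPKM in C8161 against 0 and 0.17 RPKM in A2058, BCAT1, a branched-chain aminotransferase, at 43.4 and 41.8 RPKM in C8161 against 0.03 and 0.01 RPKM in A2058, and BNC1, an epithelial zinc finger factor, at 37.7 and 34.6 RPKM in C8161 against 0 and 0 RPKM in A2058. APOE, apolipoprotein E, and PEG10, an imprinted gene of retrotransposon origin on chromosome 7, were among the 20 lowest differences. APOE was at 331 and 349.9 RPKM in A2058 against 0.26 and 0.26 RPKM in C8161. PEG10 was at 235 and 214 RPKM in A2058 against 0.11 and 0.14 RPKM in C8161.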
